A study of Mus musculus with 28 samples.

Results

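The transcripts described here encode 10 interferon-inducible GTPases of mouse: the guanylate-binding proteins Gbp2, Gbp3, Gbp4, Gbp5, Gbp7, Gbp9 and Gbp11, and the immunity-related GTPases Iigp1, Irgm1 and Igtp. They were found by their gene symbols among 54427 symbols with a number in the count tables, of which 29066 had a count in some library, and no member symbol was listed more than once. All 10 had counts in every library and passed the filter on low counts in every fit. The libraries are bulk QuantSeq 3′ libraries of primary mouse microglia, the resident macrophages of the brain, sequenced from the 3′ end of polyadenylated RNA. Tau-treated cells were of genotype APOE3S/S (label Christchurch, 6 libraries) and APOE3 (label WT, 6 libraries), amyloid-treated cells of APOE3S/S (3 libraries) and APOE3 (3 libraries), and cells that received nothing (label Control, called untreated here) of APOE3S/S (4 libraries) and APOE3 (6 libraries). The labels name APOE3 in every group, so no group without it serves as a control, and counts of 3′ tags cannot check the Christchurch change. The comparisons ask how these transcripts differ with tau, with amyloid and with genotype. The labels give neither dose, duration, vehicle nor animal, so the p-values speak only to how much these libraries vary, and that variation may be technical.

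Guanylate-binding proteins (GBPs) are large GTPases that assemble on bacteria and on pathogen-containing vacuoles, and those of the immunity-related GTPase (IRG) family act on the same vacuoles in mice. Transcription of both families is raised by interferons, through transcription factors that bind gamma-activated sites (GAS) and interferon-stimulated response elements (ISRE) near their starts. In macrophages GBPs also feed caspase-11 and inflammasome signalling, and in microglia they are among the usual transcripts of an interferon-responsive state.

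The sequences before the transcription starts are shown because interferon-linked motifs can be read in them, both kinds in 3 of the 6. Any link between these motifs and the levels below was not tested. RefSeq promoter windows (GRCm38.p6) were matched by symbol for 6 of the 10 members, namely Gbp2, Gbp3, Gbp5, Gbp7, Irgm1 and Igtp. Each line gives the 250 bases before the start, 5′ to 3′ on the gene's strand, with motif matches in capitals. They lie at chr3:142620413-142620662, chr3:142559794-142560043, chr3:142496684-142496933 and chr3:142530086-142530335 on the plus strand, at chr11:48871421-48871670 on the minus strand and at chr11:58199306-58199555 on the plus strand.
Gbp2: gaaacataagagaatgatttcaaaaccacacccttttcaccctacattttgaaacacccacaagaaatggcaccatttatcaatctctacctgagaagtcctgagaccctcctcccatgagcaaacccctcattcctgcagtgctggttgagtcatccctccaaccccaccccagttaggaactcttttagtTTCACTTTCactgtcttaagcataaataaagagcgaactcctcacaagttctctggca
Gbp3: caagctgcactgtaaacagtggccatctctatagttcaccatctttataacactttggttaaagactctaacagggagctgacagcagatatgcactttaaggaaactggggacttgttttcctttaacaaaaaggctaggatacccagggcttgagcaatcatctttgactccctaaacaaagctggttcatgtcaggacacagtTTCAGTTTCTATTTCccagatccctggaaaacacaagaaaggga
Gbp5: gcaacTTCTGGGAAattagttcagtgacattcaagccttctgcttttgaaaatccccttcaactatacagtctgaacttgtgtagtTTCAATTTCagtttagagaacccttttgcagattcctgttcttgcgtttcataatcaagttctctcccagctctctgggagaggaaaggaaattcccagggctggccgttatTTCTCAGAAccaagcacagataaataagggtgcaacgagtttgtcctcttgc
Gbp7: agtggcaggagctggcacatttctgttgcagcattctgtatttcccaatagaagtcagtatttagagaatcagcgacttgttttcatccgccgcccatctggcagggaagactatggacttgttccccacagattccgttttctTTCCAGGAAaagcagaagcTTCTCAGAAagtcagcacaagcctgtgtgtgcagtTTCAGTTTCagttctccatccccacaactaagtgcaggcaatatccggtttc
Irgm1: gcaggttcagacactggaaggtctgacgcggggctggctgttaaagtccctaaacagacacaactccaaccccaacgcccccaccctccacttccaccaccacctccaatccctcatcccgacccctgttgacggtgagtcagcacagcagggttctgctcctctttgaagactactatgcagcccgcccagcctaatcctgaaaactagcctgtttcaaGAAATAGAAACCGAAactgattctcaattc
Igtp: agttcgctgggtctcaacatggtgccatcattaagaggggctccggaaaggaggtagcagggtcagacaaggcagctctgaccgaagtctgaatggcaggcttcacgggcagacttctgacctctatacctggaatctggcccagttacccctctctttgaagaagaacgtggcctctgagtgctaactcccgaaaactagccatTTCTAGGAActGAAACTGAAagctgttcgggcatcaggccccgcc

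The capitals mark GAAANNGAA, the core of an ISRE, and TTCNNNGAA, the core of a GAS, searched on both strands in windows that also held 50 bases after the start. A match to the ISRE core was present in 6 of the 7 windows of these 6 genes (Gbp3 has a second window, with neither motif), and in 8.56% of all 32851 RefSeq windows of that length. The matches of Gbp2, Gbp7 and Igtp began 58, 52 and 34 bases before the start. Those of Gbp3 began 44 and 38 bases before it and overlap each other, as do those of Irgm1 at 30 and 24 bases. The match of Gbp5 lay farther out, at 164 bases. A GAS core stood in the windows of Gbp5, Gbp7 and Igtp, and in 8.30% of all windows; the second GAS match of Gbp5 began 52 bases before the start, and that of Igtp 45 bases before it, next to its ISRE core without overlap. Among 11 windows of other genes of both families, 7 held the ISRE core and 5 the GAS core. These matches are letters in a window, not measured binding.

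**Figure D1:**
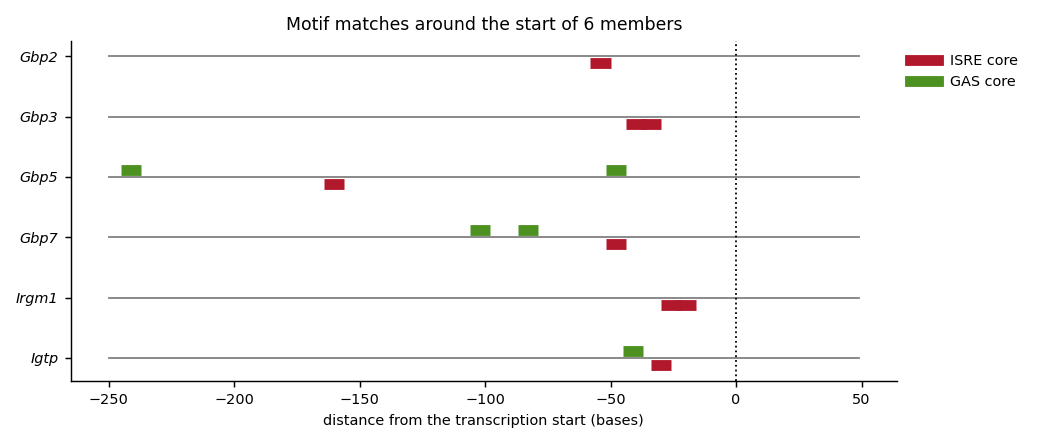
Positions of ISRE core and GAS core matches in the windows of 6 members, in bases from the transcription start (dotted line); each grey line is 1 window of 250 bases before and 50 after the start. All 6 genes carry an ISRE core, close to the start in every gene but Gbp5, and 3 carry a GAS core.

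In GENCODE M21 (GRCm38), Gbp5, Gbp7, Gbp3 and Gbp2 lie in this order within 144.0 kb (chr3:142493978-142638008), and Gbp9, Gbp4 and Gbp11 within 268.8 kb (chr5:105077630-105346472). Irgm1 and Igtp are both on chromosome 11, at chr11:48861968-48871683 and chr11:58199556-58207591. The annotated span of Gbp4 overlaps those of Gbp9 and Gbp8 on the same strand, and that of Igtp overlaps Irgm2, so the authors' counting could split or lose reads there. The chromosome 5 GBPs are also close in sequence, and Gbp11 is annotated as a polymorphic pseudogene. Counts of Gbp4, Gbp9, Gbp11 and Igtp are therefore uncertain as to which gene gave them.

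Library totals ran from 14464761 to 27220695 counts, with 17302 to 20023 genes detected. Library titles follow 2 naming series, 1 ending in SAN (17 libraries, all treatments) and a second (11 libraries, tau and untreated only), and the labels do not say what separates them. Microglial markers summed to 6093 to 9585 counts per 1000000 counts of the library (CPM) in every library, although Siglech had a count in 4 libraries only. Of 10 T and NK cell markers, Cd3d, Cd8a, Nkg7, Gzma and Gzmb were at 0 in all 28 libraries. The others had counts: Cd4 in all 28 (1.36 to 10.05 CPM), Klrb1c in 23, Cd3g in 5, Cd3e in 3 and Ncr1 in 1. Markers of border-associated macrophages and monocytes summed to 1090 to 1520.4 CPM in the SAN series and 2265 to 3493 CPM in the second, so they moved with title series, and their part in the results below was not tested. In bulk RNA, fewer cells of a type and less RNA per cell cannot be told apart.

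One library stood apart before any comparison. Untreated APOE3S/S library 2, of the SAN series, had a summed level of 1160 CPM over the 10 members, against 302, 346 and 505 CPM in the other untreated APOE3S/S libraries. That is above every other untreated library of either genotype and within the range of the tau-treated ones. Its microglial markers summed to 7491 CPM, its border macrophage and monocyte markers to 1240.2 CPM and its astrocyte markers to 89.5 CPM. The microglial sum was the highest of the SAN series and the astrocyte sum the highest of the untreated libraries. Averaged over untreated APOE3S/S, the largest astrocyte markers were Aldh1l1 (36.8 CPM) and Aldoc (17.6 CPM), with every other at 4.1 CPM or less. The part of these markers in the GTPase levels of library 2 was not tested. Each comparison that uses untreated APOE3S/S is given below with and without it.

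**Figure D2:**
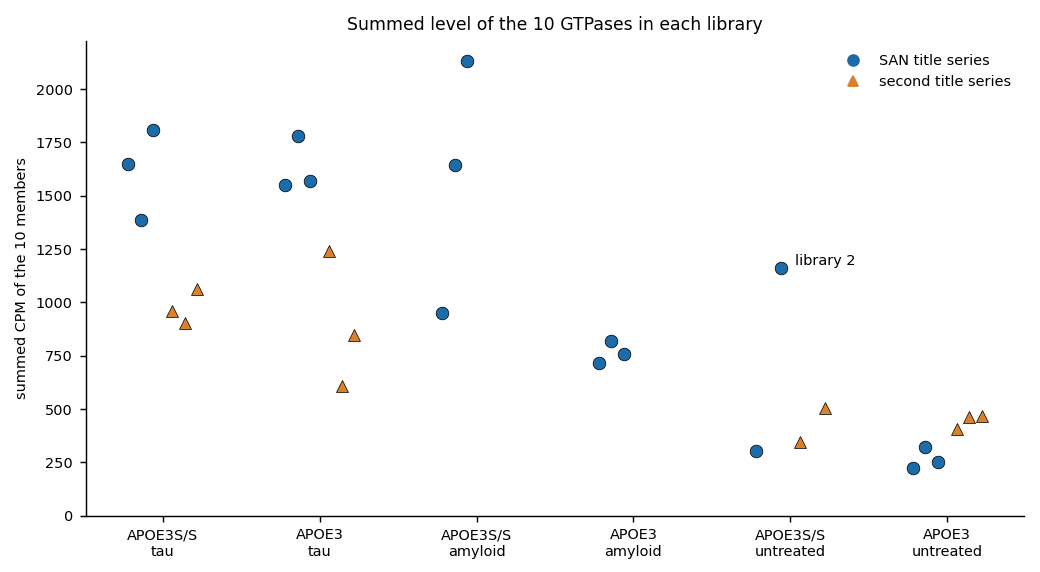
Summed CPM of the 10 members in each of 28 libraries, by group and title series. Untreated APOE3S/S library 2, at 1160 CPM, lies among the tau-treated libraries, which span 608 to 1810.4 CPM.

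With tau, all 10 GTPases rose in APOE3 microglia, GBPs and IRGs alike. Of all 13905 genes tested, 8.98% were called higher (edgeR quasi-likelihood test, Benjamini-Hochberg adjusted p under 0.05). The median log2 fold change of the members was 2.30, and that of all genes -0.02. In 9 members, every one of 6 tau libraries was above every one of 6 untreated libraries, an arrangement found in 2.51% of genes. The exception was Gbp2.

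Gbp2, a prenylated GBP that coats bacteria and parasite vacuoles, had 46.3, 253 and 429.7 CPM (lowest, median, highest) in tau-treated APOE3 libraries, against 25.0, 35.8 and 46.4 CPM in untreated ones. Its lowest tau library lay just under the highest untreated library, and the others were well above. The log2 fold change was 2.34 ± 0.44 (SE, n = 6 and 6; edgeR adjusted p = 0.00103). Gbp5, which promotes inflammasome responses in macrophages, had 18.7, 76.1 and 112 CPM with tau and 5.00, 9.03 and 11.3 CPM untreated. These ranges did not overlap, and its log2 fold change of 2.82 ± 0.44 carried the smallest adjusted p of the members (0.000271, edgeR). Gbp3, from the chromosome 3 cluster whose loss impairs control of Toxoplasma in mice, had 43.5, 119 and 152 CPM with tau and 14.1, 19.6 and 28.5 CPM untreated. It rose by 2.25 ± 0.37 on the log2 scale, with groups that did not overlap. Gbp7, linked to oxidative defence in mouse macrophages, had 96.7, 174 and 192 CPM with tau and 16.7, 54.6 and 76.8 CPM untreated, a log2 fold change of 1.68 ± 0.32.

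The chromosome 5 GBPs followed. Gbp4 had 13.9, 46.4 and 72.6 CPM with tau and 1.88, 4.81 and 11.5 CPM untreated, and Gbp11 had 13.8, 31.2 and 37.0 CPM with tau and 0.966, 4.20 and 10.1 CPM untreated. Neither pair of ranges overlapped, and the log2 fold changes were 2.73 ± 0.55 and 2.53 ± 0.46. Gbp9 had 158, 182 and 232 CPM with tau and 34.8, 84.2 and 129 CPM untreated, and rose by 1.27 ± 0.23. Its untreated libraries split by title series, which is taken up below.

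Among the IRGs, Iigp1 is an effector that loads onto the vacuole membrane, while Irgm1 and Igtp (Irgm3) are regulators that sit on host membranes and hold effectors inactive there. Iigp1 had 24.8, 115 and 163 CPM with tau and 6.42, 11.5 and 16.7 CPM untreated, the largest log2 fold change of the 10 at 2.88 ± 0.52. Irgm1 had 140.3, 260.2 and 296 CPM with tau and 87.8, 101 and 115 CPM untreated, the smallest at 1.21 ± 0.22. Igtp lay between, with 40.1, 111 and 136 CPM with tau, 22.1, 30.7 and 36.3 CPM untreated and a log2 fold change of 1.62 ± 0.31. None of these 3 pairs of groups overlapped. Adjusted p (edgeR) was 0.000271 to 0.00181 over the 10, and leaving out any 1 of the 12 compared libraries kept 10 calls.

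**Figure D3:**
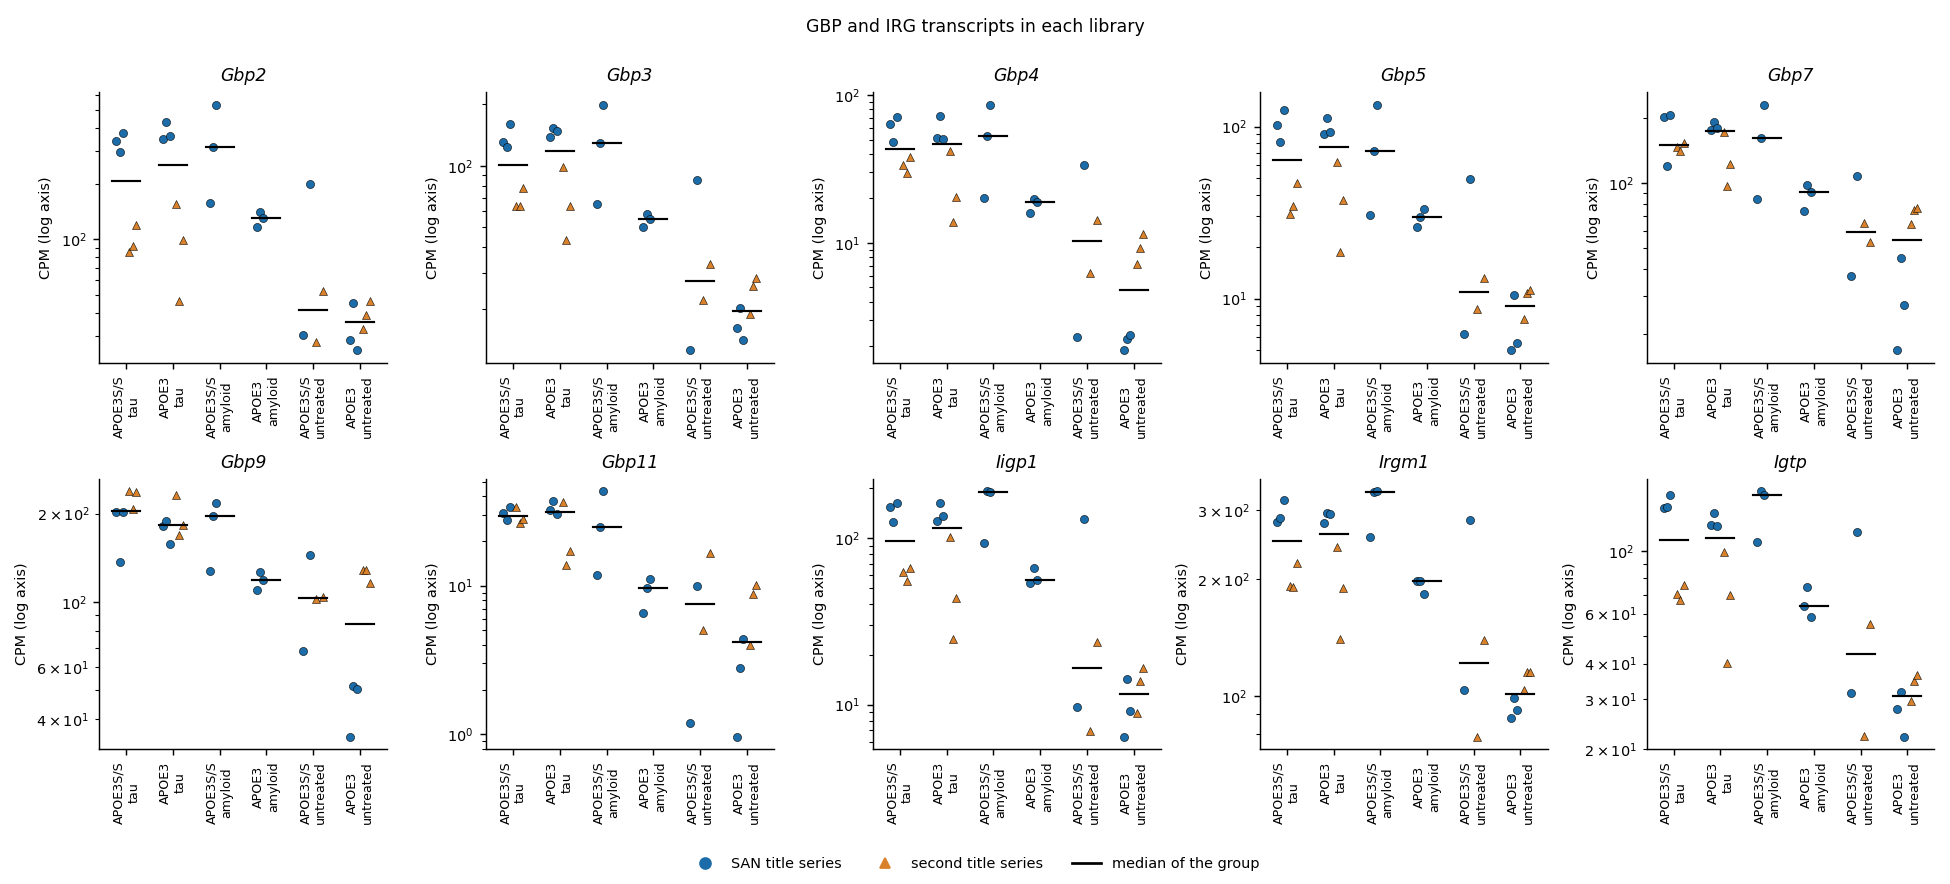
CPM of each member in every library on a log axis, by group, with title series as colour and shape and the group median as a bar. The median of each tau group lies above that of its untreated group for all 10 members, and untreated APOE3S/S library 2 is the highest of its group for every member but Gbp11.

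The log2 fold change with tau in APOE3 was higher in the SAN series for all 10 members, and the difference between series passed the test for Gbp4, Gbp7 and Gbp9. Fitted in each series apart, 10 members were called in the SAN series, where 11.7% of genes were called higher, and 5 in the second, where 1.91% were. In a fit of both series with a level for each group and series, 10 were called in the SAN series and 0 in the second. In the second series the adjusted p (edgeR) was 0.0666 to 0.233, and all 10 had an unadjusted p under 0.05. The share of all genes at either level is not given here for that fit, which gives the values that follow. Gbp4 had 51.2, 72.6 and 50.7 CPM with tau and 1.88, 2.24 and 2.37 CPM untreated in the SAN series, a log2 fold change of 4.82 ± 0.66. In the second series it had 42.2, 13.9 and 20.6 CPM with tau and 7.26, 9.28 and 11.5 CPM untreated, a log2 fold change of 1.49 ± 0.55. The groups did not overlap in either series. The difference between series was called for 3 members, while 2.93% of genes were called higher: Gbp4 (3.33 ± 0.85, edgeR adjusted p = 0.0255), Gbp7 (1.83 ± 0.47, 0.0252) and Gbp9 (1.35 ± 0.30, 0.0125). Leaving out 1 library gave 1 to 4 calls.

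The untreated levels of these 3 genes also differed between series. Gbp9 had 181, 189 and 158 CPM with tau and 34.8, 52.0 and 50.5 CPM untreated in the SAN series, against 232, 169.5 and 184 CPM with tau and 129, 129 and 116 CPM untreated in the second. The untreated libraries of the series did not overlap, whereas the tau-treated ones did. In untreated APOE3, SAN against second gave a log2 fold change of -1.53 ± 0.22 for Gbp9, -2.19 ± 0.67 for Gbp4 and -1.37 ± 0.34 for Gbp7 (edgeR adjusted p = 7.67e-05, 0.0313 and 0.00811). Gbp2 had 350.5, 429.7 and 360.0 CPM with tau in the SAN series and 155, 46.3 and 98.6 CPM with tau in the second, without overlap, and that difference was not tested.

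**Figure D4:**
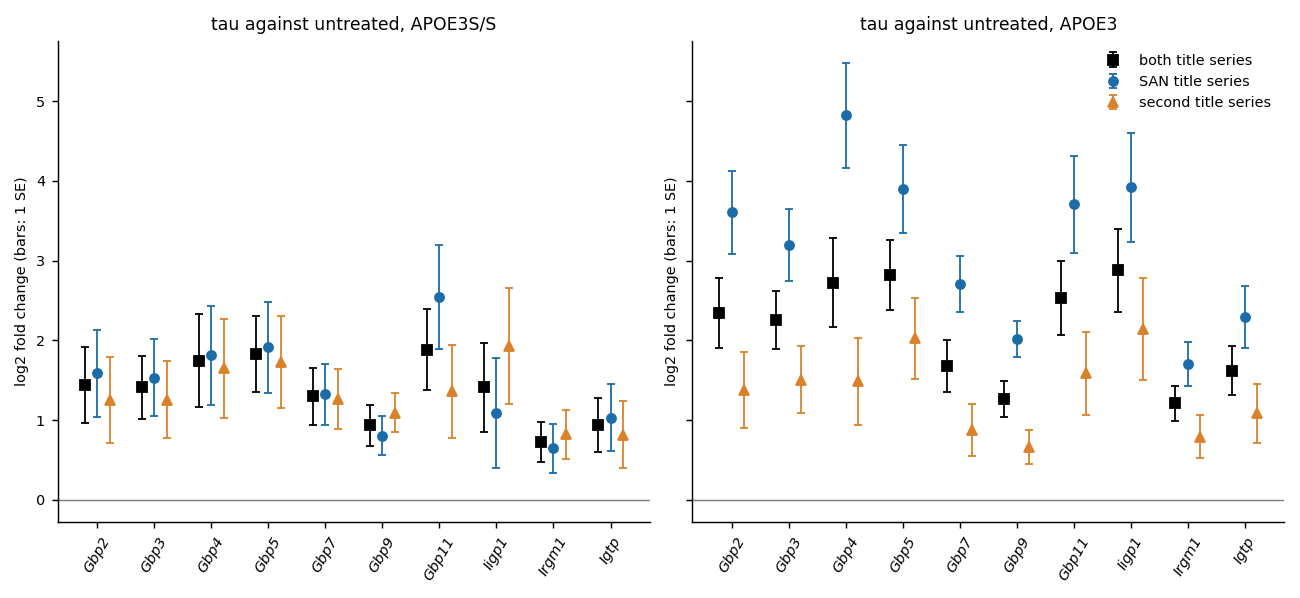
log2 fold change of tau-treated against untreated libraries for each member in APOE3S/S (left) and APOE3 (right), over both title series and in each; bars are 1 SE. In APOE3 the SAN values lie above the second-series values for all 10 members.

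In APOE3S/S microglia, 4 of the 10 were called higher with tau, where 2.14% of genes were: Gbp5 (1.83 ± 0.47), Gbp7 (1.30 ± 0.36), Gbp9 (0.93 ± 0.26) and Gbp11 (1.88 ± 0.50), with edgeR adjusted p of 0.038 to 0.0485. The other 6 had log2 fold changes of 0.72 (Irgm1) to 1.74 (Gbp4) and adjusted p of 0.0545 to 0.159. Gbp5 had 31.1, 64.0 and 125 CPM with tau (lowest, median, highest), against 6.23, 49.8, 8.72 and 13.2 CPM in untreated libraries 1 to 4. Library 2 overlapped the tau group, and the other 3 lay below all of it. Iigp1 showed the same arrangement, with 55.0, 95.8 and 162 CPM with tau and 9.69, 131, 6.97 and 23.7 CPM untreated. Every tau library was above every untreated one for Gbp7 and Gbp11 only, as for 1.11% of genes. Without untreated library 2 all 10 were called, with a median log2 fold change of 2.03 against 1.41 with it, and 4.33% of genes were called higher. Leaving out each of the other libraries gave 0 to 3 calls, and the calls were lost without untreated library 1 or 3 or tau library 2, 3, 4 or 6.

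In APOE3S/S the log2 fold change of Gbp5 with tau was 1.91 ± 0.57 in the SAN series and 1.73 ± 0.58 in the second. The difference between series ran from -0.84 (Iigp1) to 1.18 (Gbp11) and was called for 0 members by edgeR (0 at an unadjusted p under 0.05, and 0 by DESeq2), where 0.539% of genes were called higher. Without untreated library 2 the median of that difference was 2.20, in a fit that leaves no replicate of untreated APOE3S/S in the SAN series.

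Under tau, no difference between genotypes was resolved. Gbp2 had 85.7, 208 and 374 CPM in APOE3S/S and 46.3, 253 and 429.7 CPM in APOE3, and Iigp1 had 55.0, 95.8 and 162 CPM in APOE3S/S and 24.8, 115 and 163 CPM in APOE3. The ranges overlapped for both. Over the 10 members the log2 fold change of APOE3S/S against APOE3 was -0.12 (Gbp2) to 0.19 (Gbp4), with SE of 0.22 to 0.48. By edgeR 0 members were called, 0 had an unadjusted p under 0.05 and 0 were called by DESeq2, while 0.00719% of genes were called higher.

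Untreated, all 10 members had a positive log2 fold change of APOE3S/S against APOE3, from 0.41 (Gbp7) to 1.53 ± 0.56 (Iigp1). By edgeR 0 were called (adjusted p 0.642 to 0.722), 4 had an unadjusted p under 0.05, as had 4.55% of genes in that direction, and DESeq2 called 0. Called higher were 0.00719% of genes. Iigp1 had 9.69, 131, 6.97 and 23.7 CPM in untreated APOE3S/S, against 6.42, 11.5 and 16.7 CPM (lowest, median, highest) in untreated APOE3. Library 2 was far above the APOE3 range and another APOE3S/S library slightly above it. Without library 2 the median was 0.29, against 0.78 with it. Within series, the values were 1.07 to 3.08 in the SAN series, which holds library 2, and -0.25 to 0.57 in the second.

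The response to tau was numerically smaller in APOE3S/S for all 10 members, with differences of -0.33 (Gbp9) to -1.47 ± 0.73 (Iigp1) on the log2 scale. The test of this difference called 0 members and 0% of genes lower by edgeR, 0 members had an unadjusted p under 0.05, and DESeq2 called 0. Without untreated APOE3S/S library 2 the median difference was -0.30, against -0.76 with it. Fitted on the SAN series alone, which holds library 2, the median was -1.54, and on the second series alone -0.18, with 0 calls in each. The fit with a level for each group and series gave adjusted p (edgeR) from 0.687 in the SAN series and 0.849 in the second. An unadjusted p under 0.05 was found for 9 members in the SAN series and 0 in the second. The share of all genes at that level was not counted within series, so these counts do not show whether the members stood out.

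Amyloid was tested in the SAN series, the only one with amyloid libraries. In APOE3, each of the 10 had all 3 amyloid libraries above all 3 untreated ones, as had 13.4% of genes. Gbp4 had 16.0, 19.9 and 18.8 CPM with amyloid and 1.88, 2.24 and 2.37 CPM untreated, and Iigp1 had 53.8, 65.9 and 56.1 CPM with amyloid and 6.42, 14.2 and 9.22 CPM untreated. The amyloid libraries were close to each other and far from the untreated ones. Log2 fold changes ran from 1.04 ± 0.29 (Irgm1) to 3.07 ± 0.82 (Gbp4). By edgeR 0 were called (adjusted p 0.212 to 0.325), as were 0% of genes. All 10 had an unadjusted p under 0.05, as had 8.24% of genes in that direction, and DESeq2 called 4. Fitted on these 2 groups alone, edgeR called 10. Both alternatives also called genes outside the members, and their counts over all genes stand in the closing section. Some markers of other cells had higher values with amyloid as well, although the border macrophage and monocyte sums overlapped. Astrocyte markers summed to 72.2, 113 and 89.9 CPM with amyloid and 60.8, 61.5 and 45.2 CPM untreated, without overlap. Largest among them with amyloid were Aldh1l1 (mean 46.5 CPM) and Aldoc (32.9 CPM), and every other had a mean of 4.07 CPM or less. The monocyte marker Ly6c2 had a log2 fold change of 3.10 (adjusted p = 0.212, edgeR). None of 6 border macrophage and monocyte markers and none of 7 astrocyte markers tested was called. That fit called 0% of genes, so the lack of a call says nothing about these markers. Their part in the GTPase levels was not tested.

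In APOE3S/S, Gbp2 had 156, 317 and 536 CPM with amyloid and 30.2 and 198 CPM in the 2 untreated SAN libraries, the second of which is library 2. The amyloid libraries spread widely, from below library 2 to well above it. Log2 fold changes were 0.70 (Irgm1) to 2.30 ± 0.77 (Gbp11). By edgeR 0 members and 0% of genes were called, 6 members had an unadjusted p under 0.05, as had 4.41% of genes in that direction, and DESeq2 called 0. Without library 2, 9 members were called and 2.41% of genes, with a median of 3.52. That fit has 1 untreated APOE3S/S library, which is assumed to vary like the other groups.

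Amyloid-treated APOE3S/S cells had more of these transcripts than amyloid-treated APOE3 cells in numerical terms. For Gbp2 the levels were 156, 317 and 536 CPM in APOE3S/S and 117, 139.6 and 130.2 CPM in APOE3, and for Irgm1 255, 334 and 336 CPM in APOE3S/S and 198, 198 and 183 CPM in APOE3. The APOE3S/S libraries lay above all APOE3 libraries for 8 members, as for 8.42% of genes, and overlapped them for Gbp5 and Gbp7. Log2 fold changes were 0.69 (Gbp9) to 1.64 ± 0.63 (Gbp11). By edgeR 0 members and 0% of genes were called (adjusted p 0.383 to 0.421), and DESeq2 called 0. An unadjusted p under 0.05 was found for 9 members, as for 6.71% of genes in that direction. Untreated APOE3S/S library 2 is not compared here but enters the edgeR fit, whose spread is shared by all groups. Without library 2 the median log2 fold change was 1.41, in a fit that leaves no replicate of untreated APOE3S/S. On the 2 groups alone edgeR called 3, a count given without the share of all genes called in that fit. Fibroblast and vascular markers differed the other way, summing to 1.59, 1.02 and 3.60 CPM in APOE3S/S and 13.7, 43.9 and 5.28 CPM in APOE3, without overlap. Col1a1, Col1a2 and Dcn had log2 fold changes of -5.01, -4.04 and -4.48 (edgeR adjusted p = 0.3, 0.358 and 0.379), and their part in the GTPase levels was not tested. The difference of the amyloid response between genotypes had a median of -0.40 and was called for 0 members and 0% of genes by edgeR, for 0 at an unadjusted p under 0.05 and for 0 by DESeq2. Without untreated library 2 that median was 1.55, the opposite direction, again with 0 calls.

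Tau and amyloid were compared within the SAN series. In APOE3, every tau library exceeded every amyloid library for all 10, as for 15.1% of genes. Gbp11 had 32.0, 37.0 and 30.3 CPM with tau and 6.51, 9.63 and 11.1 CPM with amyloid, and was the 1 member called (1.96 ± 0.51, edgeR adjusted p = 0.0332), where 4.13% of genes were called higher. The other 9 had log2 fold changes of 0.66 (Gbp9) to 1.82 (Gbp5) and adjusted p of 0.0528 to 0.144. The Gbp11 call was lost when any 1 of the 6 libraries was left out. DESeq2 called 5, a count given without the share of all genes it called. In APOE3S/S the values were -0.10 (Iigp1) to 0.38 (Gbp5). There 0 members were called by edgeR or DESeq2 and 0 had an unadjusted p under 0.05, with 0.0708% of genes called higher.

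The groups are unlike in title series, since amyloid libraries are all SAN and the others come from both. Ordered by median level over all libraries, untreated APOE3 was lowest for all 10 genes, untreated APOE3S/S next and amyloid-treated APOE3 after it. Within the SAN series, where untreated APOE3S/S has 2 libraries including library 2, amyloid-treated APOE3 had the lower median of the pair for Iigp1 (56.1 CPM, against 70.4 CPM in untreated APOE3S/S) and Igtp (63.7 CPM, against 73.9 CPM). Over all libraries, the top 3 places were shared by tau-treated APOE3, tau-treated APOE3S/S and amyloid-treated APOE3S/S, whose ranges overlapped for every member. Gbp9 had the smallest ratio of highest to lowest group median, with medians of 205, 182, 197, 119, 103 and 84.2 CPM in tau-treated APOE3S/S, tau-treated APOE3, amyloid-treated APOE3S/S, amyloid-treated APOE3, untreated APOE3S/S and untreated APOE3.

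**Figure D5:**
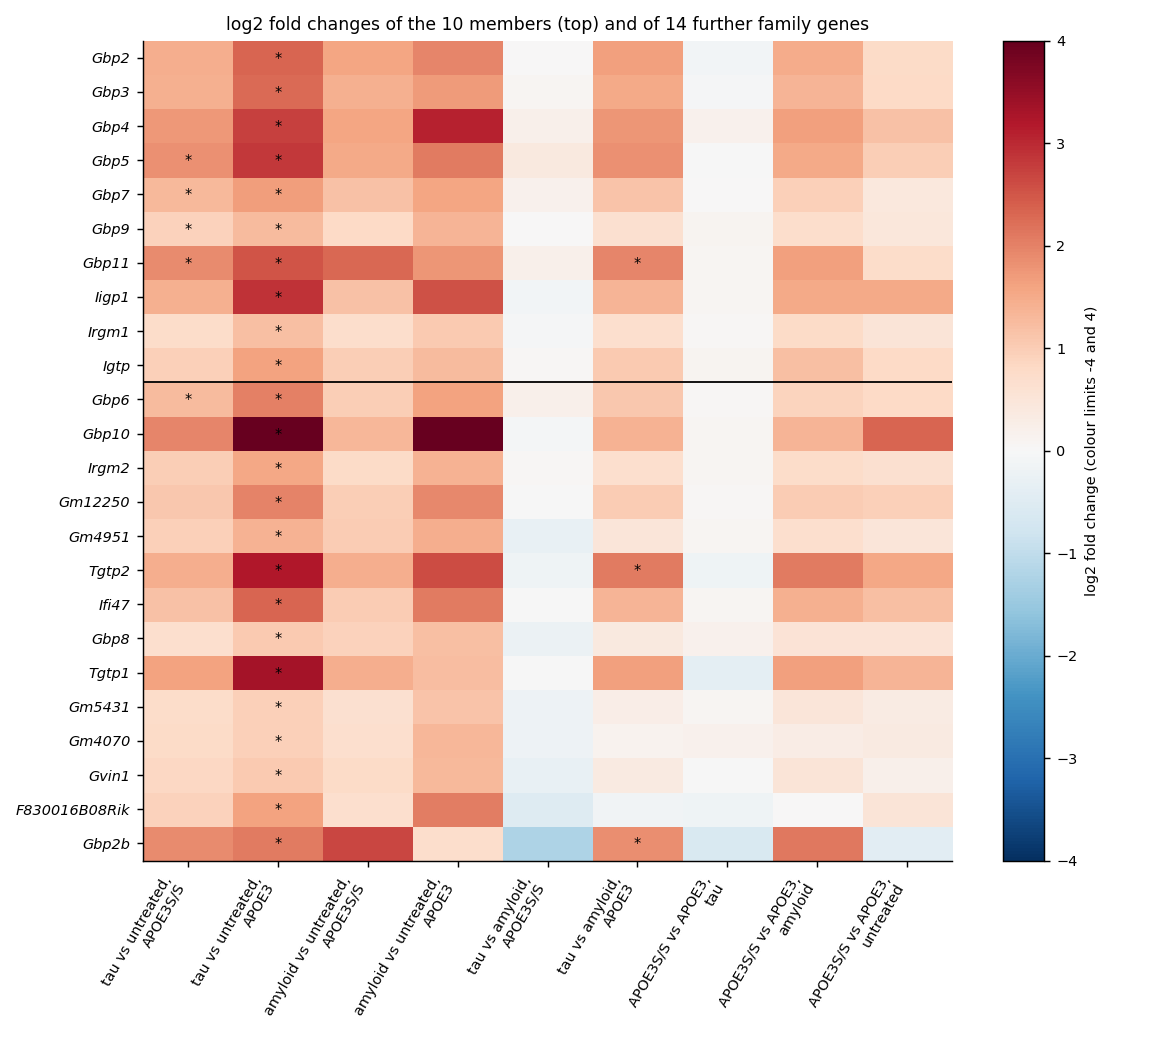
log2 fold changes of the 10 members (above the line) and of 14 further family genes called with tau in APOE3 (below it) in 9 comparisons; asterisks mark an edgeR adjusted p under 0.05. Tau against untreated in APOE3 carries an asterisk in every row, and APOE3S/S against APOE3 with tau in none.

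Most of the remaining GBP, IRG and giant GTPase (GVIN) genes also rose in tau-treated APOE3 cells. Where 8.98% of all genes were called higher, 14 of 19 tested rose and 0 fell, with a median log2 fold change of 1.39. They were Gbp6 (2.02), Gbp10 (4.19), Irgm2 (1.55), Gm12250 (1.99), Gm4951 (1.39), Tgtp2 (3.19), Ifi47 (2.32), Gbp8 (1.06), Tgtp1 (3.34), Gm5431 (0.97), Gm4070 (0.96), Gvin1 (1.06), F830016B08Rik (1.61) and Gbp2b (2.08). Gbp10, Tgtp1 and Gbp2b had at most 3.48, 2.18 and 1.26 CPM in any library, and Tgtp1 and Tgtp2 are near-identical copies. In APOE3S/S, 1 of the 19 was called higher with tau (Gbp6, 1.28 ± 0.33), where 2.14% of all genes were. Without untreated library 2 it was 13 of 20 tested, where 4.33% of all genes were called higher.

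Upstream of the GTPases, 14 of 21 interferon, JAK-STAT and IRF genes tested rose with tau in APOE3 and 1 fell, with a median of 0.48. Over all genes 8.98% were called higher and 5.87% lower. Usp18, which restrains interferon receptor signalling, rose by 2.12 ± 0.35, and Nlrc5, an activator of MHC class I genes, by 1.19 ± 0.21. The gene that fell was Irf8, a macrophage lineage factor (-0.46 ± 0.08). Ifng, the gene of interferon gamma, had 0 counts in all 28 libraries, which allows up to 0.110 to 0.207 CPM by library (3 counts, counting error only). Ifnb1, the gene of interferon beta, was counted but sparsely. It had 17, 0, 3, 4, 9 and 13 counts in tau-treated APOE3 libraries 1 to 6, against 0 in each of 6 untreated APOE3 libraries. It was among the genes called (edgeR adjusted p = 0.0216), and no fold is given against a group at 0. In tau-treated APOE3S/S libraries 1 to 6 it had 1, 5, 4, 25, 14 and 13 counts, against 0, 4, 0 and 19 in untreated APOE3S/S libraries 1 to 4, so library 2 was not the one with most. In APOE3S/S, 3 genes of the list rose and 1 fell with tau, where 2.14% of all genes were called higher and 1.14% lower. Without untreated library 2 it was 8 and 1, where 4.33% of all genes were called higher.

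Of 14 genes for ATG conjugation and vacuole targeting, the machinery that places GTPases on vacuoles, 1 rose and 2 fell with tau in APOE3, with a median of -0.07. Over all genes 8.98% were called higher and 5.87% lower, so the 1 riser of 14 is near the share over all genes. Trim21, an antibody-binding ubiquitin ligase, rose by 0.83 ± 0.16, whereas Map1lc3a (-0.71 ± 0.14) and Gabarapl1 (-0.41 ± 0.09), ATG8 family members, fell. Of 9 caspase-11 and inflammasome genes, 6 rose and 0 fell, with a median of 0.76. Il1b rose by 2.72 ± 0.43, Casp4, which encodes caspase-11, by 1.07 ± 0.20, and Il18 by 0.97 ± 0.18. In APOE3S/S 1 rose and 1 fell in the ATG list and 2 rose in the inflammasome list, where 2.14% of all genes were called higher and 1.14% lower. Without untreated library 2, where 4.33% of genes were called higher, 1 rose and 2 fell in the ATG list and 3 rose in the inflammasome list. Among microglial markers, 5 rose and 4 fell with tau in APOE3, so that list did not move one way; Trem2 (-0.90 ± 0.15) fell and P2ry12 (0.89 ± 0.15) rose. Of 6 border macrophage and monocyte markers tested, Ly6c2 (4.74 ± 0.70) and Cd163 (1.59 ± 0.41) rose and 0 fell, while F13a1 (-0.72, adjusted p = 0.06, edgeR) and Mrc1 (-0.15) did not pass the test. The part of such cells in the GTPase levels was not tested. Of the remaining marker lists, 1 of 8 astrocyte genes (Aldh1l1, 0.64) and 1 of 8 oligodendrocyte lineage genes (Cnp, 0.57) rose. So did 2 of 5 fibroblast and vascular genes (Pecam1, 2.25, and Pdgfrb, 1.39). None of 3 neuronal genes nor the 1 T cell gene tested, Cd4, passed. Cd163, Pecam1 and Pdgfrb were low, with at most 7.78, 3.27 and 2.16 CPM in any library.

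Across the 28 libraries the members varied together, as a description over libraries that share groups and title series. Pairwise Pearson correlation of log2 CPM was 0.666 (Gbp2 with Gbp9) to 0.993 (Gbp3 with Gbp5), with a median of 0.922 over 45 pairs. Each member against the mean of the others gave 0.824 (Gbp9) to 0.986 (Gbp3). The 6 genes outside the members closest to their mean, of 9738 compared, were Ifi209 (0.991), Mx1 (0.987), Gm12250 (0.987), Cmpk2 (0.984), Ifit2 (0.984) and Tor3a (0.983, lowest of the 6). With tau in APOE3 these 6 had log2 fold changes of 1.28 (Tor3a) to 2.47 (Ifit2). They were picked for following the members in these same libraries, so that rise is no separate result.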

How the data were processed

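The deposited values were 2 tables of whole-number gene counts, made by the authors from QuantSeq 3′ forward libraries of 28 samples; 5 untreated libraries stand in both tables, are identical there and entered once. The build was GRCm38 (mm10) and DESeq2 1.38.3 was used, per the submitters' processing notes; no aligner or counting program is named in what was used here. Of 60976 entries, 6360 held no number, 25 no name and 189 repeated a symbol, and these were left out. CPM is a count per 1000000 counts of the library total (14464761 to 27220695); floors cover counting error only.

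Tests used edgeR 4.0.16 in R 4.3.3 (filterByExpr by group, TMM scaling, quasi-likelihood F test, Benjamini-Hochberg over all genes tested, threshold 0.05). Tau comparisons used 22 libraries with terms for group and title series, amyloid comparisons the 11 SAN libraries of untreated and amyloid-treated cells, and tau against amyloid all 17 SAN libraries. Series differences and within-series values came from a fit with group by series. The standard error is the absolute log2 fold change over the square root of F. The fit was tested on simulated data. Groups came from the labels, and libraries are numbered within a group in accession order. Alternatives were RLE scaling, no filter, DESeq2 1.42.0, no series term, single series and compared groups alone. Others were all SAN libraries for amyloid, a replicate block, and leaving out each library of the compared groups. Added after seeing the data were edgeR's bias-adjusted dispersions, with and without the filter, and the lists without untreated APOE3S/S library 2. The members and the gene lists were chosen with earlier results of these data known. Named genes are all members, every called family gene, from each other list the 3 of smallest p with tau in APOE3, and the 6 most alike; further called genes of the marker lists, Ifng and Ifnb1 were named after their values were seen. A marker gene that this rule names is not reported here. Replicate numbers in the titles were not taken as pairs (correlation of deviations -0.194 to 0.392). Sequences came from RefSeq windows (GRCm38.p6) and coordinates from GENCODE M21.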

Additional observations from a re-analysis of the deposited data

Results flagged for a closer look

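In groups of 4 to 6 libraries, 4 member values lay far from the rest of their group (Dixon's test at the 95% level, 40 groups of values tested, in which chance flags about 1 in 20). Untreated APOE3S/S library 2 had 198 CPM of Gbp2, with 52.5 CPM as the next highest of its group. The same library had 49.8 CPM of Gbp5, with 13.2 CPM next, and 131 CPM of Iigp1, with 23.7 CPM next. Its depth, 14464761 counts, was the lowest of the 28, and its mitochondrial share was 1.25%. The values without it stand beside each comparison it enters. Tau-treated APOE3S/S library 5 had 136 CPM of Gbp9, with 203 CPM as the next lowest.

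The difference of the tau response between title series in APOE3, SAN minus second, passed the test for Gbp4 (3.33), Gbp7 (1.83) and Gbp9 (1.35) on the log2 scale.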

How the results depend on the processing

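The median over the members changed sign in 3 comparisons with 0 calls by edgeR when 1 library was left out (APOE3S/S against APOE3 with tau, the series difference in APOE3S/S and tau against amyloid in APOE3S/S), with medians of -0.01 to -0.61. The median difference of the amyloid response between genotypes also changed sign, to 1.55 without untreated APOE3S/S library 2, against -0.40. The 10 calls for tau in APOE3 held under all alternatives but the second series alone (5). For tau in APOE3S/S (4 calls), there were 10 without the filter, also with bias-adjusted dispersions, 0 without the series term, 1 in the SAN series alone and 2 on the compared groups alone; leaving out 1 library gave 0 to 10, with 0 without untreated library 1 or 3 or tau library 2, 3, 4 or 6, 1 without untreated library 4 or tau library 1, and 10 without untreated library 2. For the series difference in APOE3 (3 calls), there were 10 without the filter, also with bias-adjusted dispersions, and 1 to 4 leaving out 1 library, with 1 without untreated library 1, 3 or 6 or tau library 2, 3 or 5. In APOE3S/S (0 calls) there were 2 without the filter, and leaving out 1 library changed the 0 calls only for untreated library 2. That fit leaves no replicate of untreated APOE3S/S in the SAN series, so its count is not given.

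Amyloid in APOE3 (0 calls) gave 10 without the filter, 1 when that also used bias-adjusted dispersions, 4 by DESeq2, 10 on the compared groups alone and 1 with all 17 SAN libraries. Amyloid in APOE3S/S (0) gave 10 without the filter and 0 to 9 leaving out 1 library, with 9 without untreated library 2. APOE3S/S against APOE3 with amyloid (0) gave 10 without the filter, 3 on the compared groups alone and 4 with the replicate block; the block gave 0 with tau and 0 untreated, and the libraries share only a number. Tau against amyloid in APOE3 (1) gave 10 without the filter, 5 by DESeq2, 10 on the compared groups alone, 4 with bias-adjusted dispersions, 7 with these and no filter, and 0 to 0 leaving out 1 of its 6 libraries. Without the filter, untreated APOE3S/S against APOE3 gave 10, the genotype difference of the tau response 6 and that of the amyloid response 2.

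Without the filter the prior degrees of freedom, which set how far each gene's spread is drawn to the trend, went to 451.5 in the amyloid fit, against 4.34 with it, and were infinite in the others, so those calls do not use each gene's own spread. The cause of the other changes was not tested. Member counts under these alternatives stand without the share of all genes called, except where a share or a count over all genes is printed. Such counts alone do not show whether the members stood out. Over all genes, called higher and lower, tau in APOE3 gave 1248 and 816, against 625 and 221 without the series term and 278 and 94 in the second series. Tau in APOE3S/S gave 297 and 159, against 596 and 354 by DESeq2, 0 and 0 without the series term and 613 and 223 without untreated library 2. Amyloid in APOE3 gave 0 and 0, against 228 and 61 by DESeq2, 470 and 105 on the compared groups alone and 99 and 19 with all SAN libraries. Tau against amyloid in APOE3 gave 583 and 453, against 1970 and 1676 on the compared groups alone.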
